A study of Mus musculus with 4 samples.

Results

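The 9 genes described here are homeostatic and complement genes of microglia, the resident immune cells of the brain: C1qa, C1qb, C1qc, Csf1r, Cx3cr1, P2ry12, Tmem119, Trem2 and Tyrobp. They were chosen by symbol for what they are known to do, and all 9 were found among the 25567 genes counted in every library. The study sorted single nuclei from the hippocampus of mice aged 8.5 months and sequenced 1 nucleus to a well by Smart-seq2, in which whole transcripts are copied without tags that mark single molecules. Wild-type (WT) mice were compared with Fasn-R1812W mice, in which fatty acid synthase, the enzyme that makes palmitate, carries an amino acid substitution. Each genotype gave 1 library of nuclei positive for the neuronal protein NeuN and 1 library of nuclei positive for EdU, a thymidine analogue taken up during DNA synthesis. For the EdU+ libraries, mice of both genotypes received EdU by injection on 3 days, with 2 injections daily of 100 mg per kg each, and the hippocampus was taken on day 4. How many animals gave the nuclei of a library is not given in the sources used here, and neither is the zygosity or strain of the mice.

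Microglia sense and clear debris and synapses through a small set of surface receptors. C1qa, C1qb and C1qc encode the chains of C1q, the molecule that starts the classical complement pathway and tags material for uptake. Csf1r is the receptor for the survival signals CSF1 and IL-34, Cx3cr1 the receptor for neuronal fractalkine, P2ry12 a receptor for ADP that guides microglial processes, and Trem2 a lipid receptor that signals through the adaptor TYROBP. Tmem119 marks microglia apart from most other macrophages, whereas Tyrobp and Csf1r are also made by monocytes and related leukocytes, and Tyrobp by natural killer cells.

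Depth differed between the libraries, and each of the 4 groups had 1 library of 384 wells, so no comparison has a replicate check and no p-value is given. Wells with at least 300 genes and 20000 reads were kept unless stated, which left 350 in NeuN+ WT, 352 in NeuN+ Fasn-R1812W, 352 in EdU+ WT and 376 in EdU+ Fasn-R1812W. Median reads per kept well were 201604, 142004, 90313.5 and 211302 in that order. The EdU+ libraries differed most: a median of 1025 genes had a read in EdU+ WT and 2935.5 in EdU+ Fasn-R1812W, while genes with 10 or more reads numbered 743 and 1112.5. A gene is called on in a well with 10 or more of its reads. All 384 pairs of well indexes occurred in all 4 libraries. The exact intervals below, at 95%, express counting error alone: PCR copies are not independent molecules, and no spread between animals enters them.

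The C1q genes lie side by side on the minus strand of chromosome 4, within 18.7 kb of GRCm38: C1qb at 136880129 to 136886187, C1qc at 136889804 to 136893065 and C1qa at 136895917 to 136898803. P2ry12 is on the minus strand of chromosome 3 (59216272 to 59262871), inside Med12l, which runs on the other strand. Cx3cr1 is on chromosome 9 (119901616 to 120069879, minus strand), Tmem119 on chromosome 5 (113793729 to 113800516, minus strand), Trem2 on chromosome 17 (48346401 to 48354147, plus strand) and Tyrobp on chromosome 7 (30413760 to 30417585, plus strand).

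The sequences upstream of 4 of these genes are shown because the genes were detected in the same wells and because PU.1, the ETS-family factor that myeloid cells depend on, is known to bind GAGGAA and AGGAAGT. They were taken from RefSeq promoters of GRCm38.p6, in which 5 of the 9 members had an entry, C1qb, C1qc, Cx3cr1, P2ry12 and Trem2. Each runs 5′ to 3′ on the gene's strand and ends at the transcription start, apart from bases that the annotation places in exons, which were left out. Capitals mark GAGGAA or AGGAAGT on either strand.
C1qb, chr4:136886201-136886450, minus strand: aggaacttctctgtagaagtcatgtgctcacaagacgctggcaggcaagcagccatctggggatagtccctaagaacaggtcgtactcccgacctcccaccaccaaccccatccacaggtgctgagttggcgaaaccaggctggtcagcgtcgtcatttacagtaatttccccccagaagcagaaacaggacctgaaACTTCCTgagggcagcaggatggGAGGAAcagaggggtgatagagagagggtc
C1qc, chr4:136893066-136893164, minus strand: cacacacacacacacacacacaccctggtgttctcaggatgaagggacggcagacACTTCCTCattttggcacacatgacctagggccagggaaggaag
P2ry12, chr3:59262986-59263235, minus strand: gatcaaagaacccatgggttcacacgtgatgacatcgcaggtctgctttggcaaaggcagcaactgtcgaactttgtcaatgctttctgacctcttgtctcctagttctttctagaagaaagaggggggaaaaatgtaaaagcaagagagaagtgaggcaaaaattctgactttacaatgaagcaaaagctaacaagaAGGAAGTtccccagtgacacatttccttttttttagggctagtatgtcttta
Trem2, chr17:48346151-48346400, plus strand: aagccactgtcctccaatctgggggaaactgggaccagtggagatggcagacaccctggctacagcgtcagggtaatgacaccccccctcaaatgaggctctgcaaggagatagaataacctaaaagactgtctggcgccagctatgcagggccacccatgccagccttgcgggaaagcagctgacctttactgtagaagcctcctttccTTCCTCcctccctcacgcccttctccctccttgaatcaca
C1qb held 1 match of each motif and C1qc 1 of each, which overlapped, while P2ry12 held AGGAAGT alone and Trem2 GAGGAA alone. The 250 bases before the RefSeq start of Cx3cr1 held neither motif and are not printed, as they lie in an annotated exon. Among 32851 promoters, 23.3% held GAGGAA, 7.69% AGGAAGT and 27.3% at least 1 of them in the 250 bases before the start. A match is a description of letters and not a bound site.

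All 9 genes had higher summed levels in the EdU+ than in the NeuN+ libraries, and in EdU+ each was on in a minority of wells, 3.98% to 12.5%. Levels are given in CPM, the reads of a gene per 1000000 nuclear-encoded reads after summing the kept wells. C1qb reached 633 CPM in the EdU+ gate of WT and 511 in that of Fasn-R1812W, against 0.622 and 15.0 CPM in the NeuN+ libraries. Each of the 9 was at least 2-fold higher in EdU+ than in NeuN+ within both genotypes, where 24.7% of 14410 genes tested were so in WT and 25.7% of 14751 in Fasn-R1812W. In WT 7 of the 9, and in Fasn-R1812W 4, were below the minimum of 5 CPM in NeuN+ and were tested through their EdU+ level alone, so that the count is partly set by the filter and nothing is read from it. Csf1r and P2ry12 passed in both gates and both genotypes. They were 25.6-fold and 26.0-fold higher in EdU+ in WT and 16.9-fold and 24.5-fold in Fasn-R1812W. The NeuN+ level of Csf1r is uncertain, as described below. For P2ry12, 1 well held 62.8% of the NeuN+ reads in WT and 1 well 55.2% in Fasn-R1812W. The log2 ratio of EdU+ over NeuN+, taken after adding 1 CPM to each side, had a median of 6.63 over the 9 genes in WT, beside -0.01 over all genes tested. In Fasn-R1812W it was 4.81, beside 0.04. Sorting and EdU treatment differ between the gates, and in summed counts more cells of a type and more RNA per cell cannot be told apart.

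Among the C1q chains, C1qa was on in 17 EdU+ WT wells (4.83%, 2.84 to 7.62) and in 33 EdU+ Fasn-R1812W wells (8.78%, 6.12 to 12.1). C1qb was on in 26 wells (7.39%, 4.88 to 10.6) and 39 wells (10.4%, 7.48 to 13.9). C1qc was on in 26 wells (7.39%) and 34 wells (9.04%, 6.34 to 12.4). The share was the larger in Fasn-R1812W for each chain, with overlapping intervals. In wells where it was on, C1qa had a median of 94 reads (13 to 974) in WT and 300 (10 to 2374) in Fasn-R1812W. C1qb had 414 reads (12 to 2939) and 492 (11 to 7233), and C1qc 499 (27 to 3835) and 571.5 (21 to 7090). The summed levels did not follow the shares: C1qa was at 113 CPM in WT and 167 in Fasn-R1812W, C1qb at 633 and 511, and C1qc at 480 and 347. The first is a log2 difference of 0.56 and the others of -0.31 and -0.47.

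Of the receptors, Csf1r was on in the most EdU+ wells, 34 in WT (9.66%, 6.78 to 13.2) and 46 in Fasn-R1812W (12.2%, 9.10 to 16.0), and its level was nearly the same in both, at 565 and 561 CPM. Cx3cr1 was on in 23 wells (6.53%) and 36 wells (9.57%), at 231 and 338 CPM, and Trem2 in 15 (4.26%) and 21 wells (5.59%), at 114 and 116 CPM. P2ry12 was on in 14 wells (3.98%, 2.19 to 6.58) and 34 wells (9.04%, 6.34 to 12.4), the largest ratio of shares of the 9 genes, 2.27. Its level went the other way, 225 CPM in WT and 185 in Fasn-R1812W, and 1 WT well with 3462 reads held 44.2% of the WT reads of P2ry12. Without the well with the most reads in each library the log2 difference of P2ry12 was 0.41 in place of -0.28. Tmem119, a membrane protein of resting microglia, was on in 16 wells (4.55%) and 25 wells (6.65%) and stood at 255 and 141 CPM, the lowest log2 ratio of the set at -0.85.

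Tyrobp, the adaptor, was the only member at least 2-fold higher in EdU+ Fasn-R1812W, at 515 CPM (510 to 519) against 181 CPM (176 to 185) in WT, a log2 difference of 1.5. The call was lost by the mean CPM per nucleus, 201 in WT and 345 in Fasn-R1812W (log2 difference 0.78), and without wells that had 2 or more lymphocyte genes on (log2 difference 0.81). It was on in 25 WT wells (7.10%, 4.65 to 10.3) and 47 Fasn-R1812W wells (12.5%, 9.33 to 16.3). By this measure 19.7% of 14230 genes tested were at least 2-fold higher, so 1 of 9 is near the background. None of the 9 was at least 2-fold lower, where 15.5% of all genes were, and 4 of 9 were higher by any amount, where 52.3% were. The median log2 difference of the 9 genes was -0.01, beside 0.05 over all genes. The count of members on in a larger share of Fasn-R1812W wells was 9 of 9, but 89.1% of the 12946 genes on in enough wells to be compared were so too, which makes this count no result about these genes.

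Per kilobase of annotated exon, the scale on which genes can be ranked, C1qb led in EdU+ WT with 582 CPM per kb, followed by Tyrobp with 271 and C1qc with 248. Tmem119 and C1qa, at 110 and 109, were next and differed by less than their counting error, then came Csf1r, P2ry12, Cx3cr1 and, last, Trem2 with 23.1. In EdU+ Fasn-R1812W Tyrobp stood at 772 CPM per kb and C1qb at 469 over all kept wells, and Trem2 was again last with 23.4. In the wells with 3 or more of the 9 genes on, described next, the order of the first pair was the other way, with C1qb at 3410 and Tyrobp at 2705 CPM per kb. Over all kept EdU+ Fasn-R1812W wells, Cx3cr1 and P2ry12 were neighbours, at 75.1 and 72.7 CPM per kb. The exon lengths join all annotated isoforms, which lowers the value of genes with a rarely used long isoform.

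**Figure D1:**
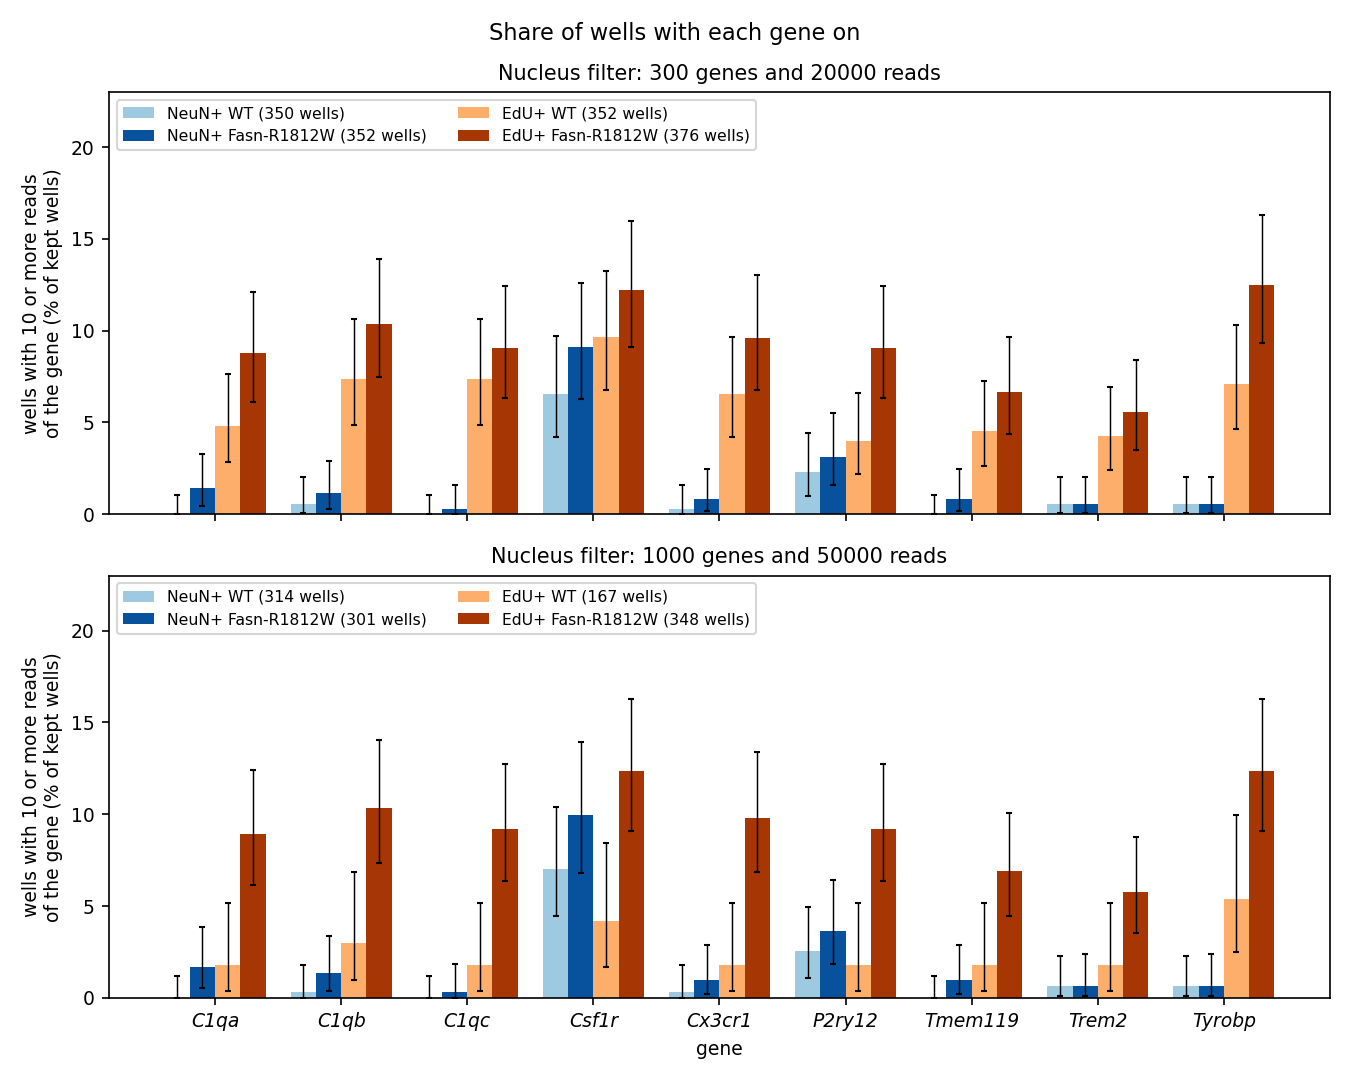
Share of kept wells with 10 or more reads of each gene (y axis, percent) for the 9 genes (x axis) in the 4 libraries, under 2 nucleus filters; bars are shares and lines exact 95% intervals for counting error. With the filter of 300 genes and 20000 reads the EdU+ WT shares lie between 3.98% and 9.66%, and with 1000 genes and 50000 reads between 1.80% and 5.39%, while the EdU+ Fasn-R1812W shares hardly move.

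The genes were concentrated in the same wells. In EdU+ WT 28 of 352 wells (7.95%, 5.35 to 11.3) had 3 or more of the 9 genes on, and in EdU+ Fasn-R1812W 44 of 376 (11.7%, 8.63 to 15.4). These are called microglial-gene wells below. The difference was 3.75 percentage points, with overlapping intervals. The median number of genes on was 6 in both sets, and all 9 were on in 5 WT wells and 7 Fasn-R1812W wells. NeuN+ WT had 0 such wells of 350, which allows a share of up to 0.857% when 3 wells are set for a count of 0 and up to 1.05% by the exact interval, and NeuN+ Fasn-R1812W had 2 of 352 (0.568%, 0.0689 to 2.04). The 9 genes took a median of 2.72% of the reads of a WT microglial-gene well and 1.78% in Fasn-R1812W.

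Genes other than Tyrobp gave nearly all of their reads from these wells. C1qa, Cx3cr1 and Trem2 were on in no other EdU+ well of either library, and at least 99.0% of their reads lay in microglial-gene wells. For C1qb, C1qc, Csf1r, P2ry12 and Tmem119 that share was between 90.1% and 100%. For Tyrobp it was 45.7% in WT and 45.8% in Fasn-R1812W. Since the wells were chosen by these genes, the shares are a description.

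**Figure D2:**
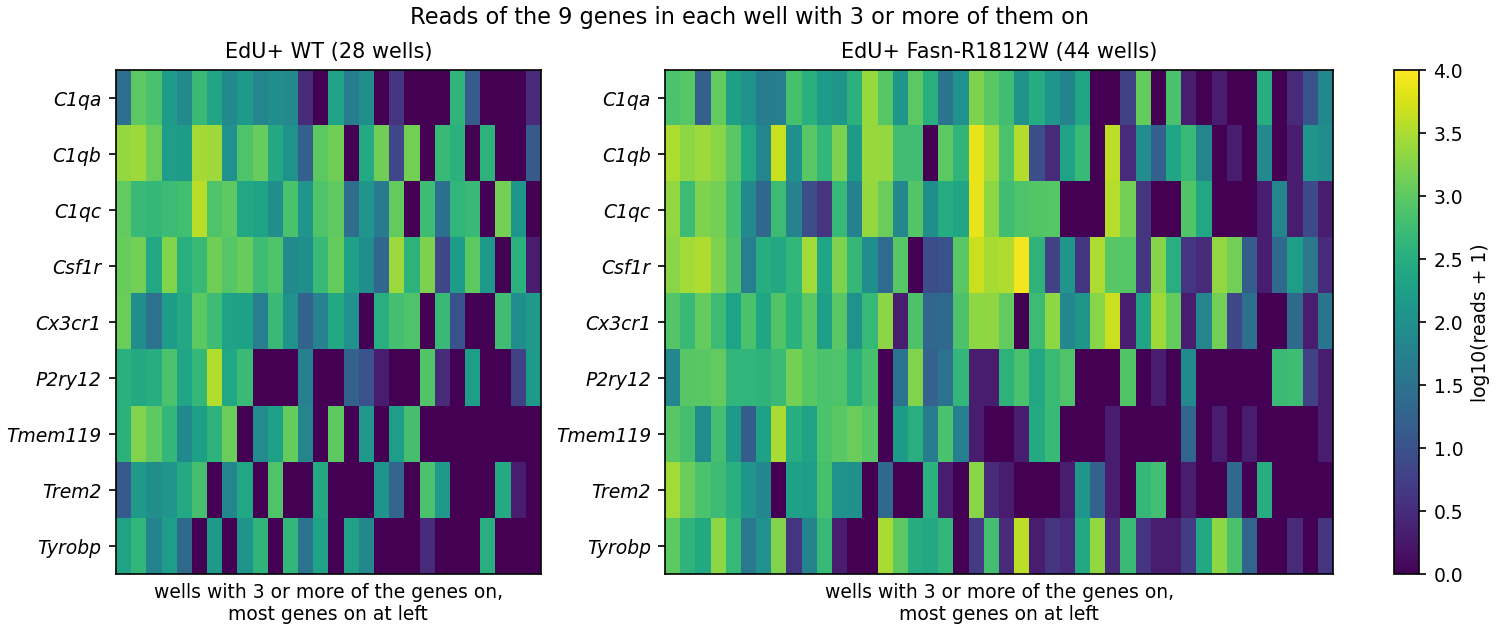
Reads of each gene (rows, log10 of reads + 1, colour) in every EdU+ well with 3 or more of the 9 genes on (columns, 28 in WT and 44 in Fasn-R1812W), ordered by the number of genes on. Wells at the left hold all 9 genes, and dark cells show that single genes were often missing next to others with many reads.

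Single genes were often not on within the microglial-gene wells. C1qc and Csf1r were each on in 25 of 28 WT wells (89.3%), Cx3cr1 in 23 and C1qb in 22. P2ry12 and Tyrobp were each on in 14 of 28 WT wells. In Fasn-R1812W Cx3cr1 was on in 36 of 44 wells (81.8%), C1qb and Csf1r in 34, C1qa in 33 and Trem2 in 21. The largest gap between the libraries was that of C1qc, on in 89.3% (71.8 to 97.7) of WT and 65.9% (50.1 to 79.5) of Fasn-R1812W microglial-gene wells. The 3 C1q chains build 1 protein, yet of 82 EdU+ wells with any chain on only 36 (43.9%) had all 3, 21 had a pair and 25 a single chain. The shares with all 3 were alike, 15 of 33 wells in WT and 21 of 49 in Fasn-R1812W.

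Co-detection was measured by the Jaccard index, the wells with both genes on divided by the wells with either on, over the 728 kept EdU+ wells. The 36 pairs had a median of 0.475 and ran from 0.241 to 0.652. C1qa and Cx3cr1 were the closest pair, on together in 43 of 66 wells, and C1qa with C1qb followed at 0.643. Cx3cr1 was also the nearest partner of C1qc (0.608), Csf1r (0.527) and Trem2 (0.532), and C1qa that of P2ry12 (0.556) and Tmem119 (0.596). Tyrobp stood apart: its nearest partner was Csf1r at 0.357, and its pair with Trem2, the receptor it serves, was the lowest of all at 0.241. Of 36 wells with Trem2 on, 21 (58.3%) had Tyrobp on. For the other members that share ran from 47.7% (C1qb) to 58.5% (Tmem119). The index of Trem2 with Tyrobp is also held down by their unequal numbers of on wells, 36 and 72. The medians in the libraries taken alone were 0.481 in WT and 0.461 in Fasn-R1812W. The order of pairs differed between them. In WT C1qc and Cx3cr1 were the closest pair at 0.75, and C1qa with Cx3cr1 stood at 0.538. In Fasn-R1812W C1qa and Cx3cr1 were the closest at 0.725. The nearest partner of P2ry12 was C1qa in WT and Tmem119 in Fasn-R1812W, while that of Tyrobp was Csf1r in both.

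**Figure D3:**
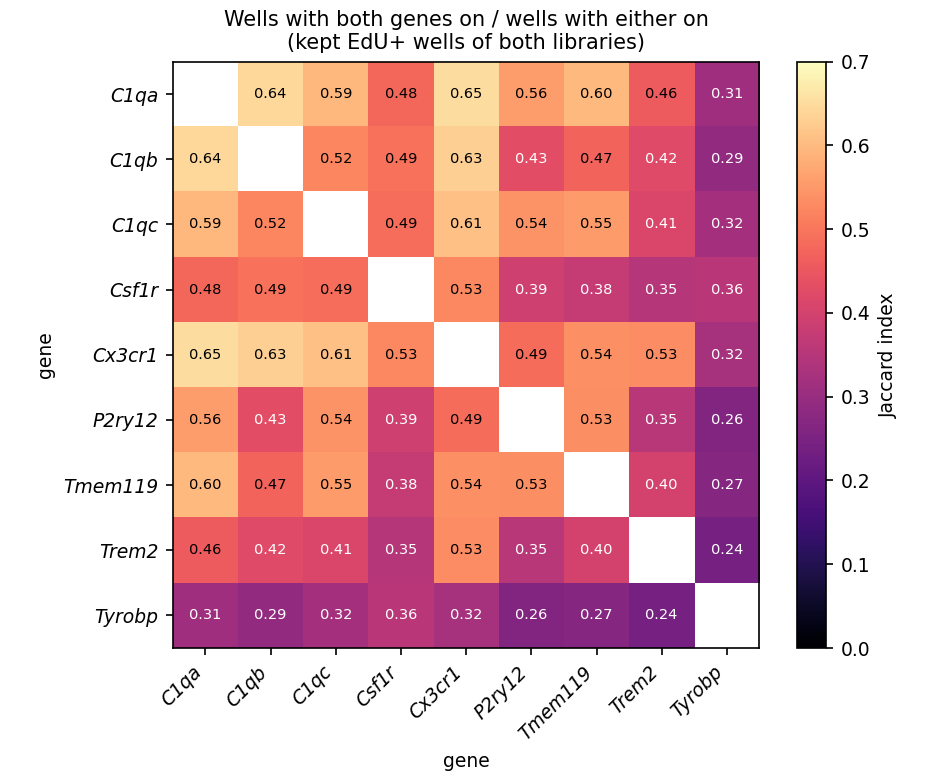
Jaccard index of each pair of the 9 genes over 728 EdU+ wells (colour and numbers; rows and columns are genes). The C1q chains, Cx3cr1 and Tmem119 lie between 0.47 and 0.65, and the row of Tyrobp is the lowest, between 0.24 and 0.36.

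Other microglial genes moved with the 9. Of 10792 genes ranked by the Jaccard index of their on wells with the 72 microglial-gene wells, the 10 most alike included Ctss (0.667), Siglech (0.645), Hpgds (0.50), Rnase4 (0.487), Lgmn (0.474), Selplg (0.469), Ly86 (0.462), Vsir (0.460) and Pld4 (0.452). The median of all ranked genes was 0.0235. Ctss and Lgmn encode lysosomal enzymes, and Siglech a surface lectin of microglia. Siglech was on in 20 of 28 and 29 of 44 microglial-gene wells and in 0 of 324 and 4 of 332 other wells. A list of 14 surface and secreted genes of microglia outside the 9 was also looked at. At least 2 were on in 28 of 28 and 44 of 44 microglial-gene wells. In the other wells the counts were 46 of 324 and 85 of 332. Cst3, Ctss and Lgmn were among the leading genes of the list. Cst3, which other brain cells also make, was on in 188 of 324 other WT wells as well.

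Of 10 myeloid transcription factors, at least 2 were on in 19 of 28 and 37 of 44 microglial-gene wells and in 21 of 324 and 57 of 332 other wells. Mef2a was on in 13 of 28 WT and 38 of 44 Fasn-R1812W microglial-gene wells, Mef2c in 13 and 22, Irf8 in 9 and 17 and Sall1, a regulator of microglial identity, in 7 and 13. Spi1, which encodes PU.1 and was singled out after its values were seen, was on in 4 and 9. Of the 9 genes listed below TREM2 and TYROBP in signalling, Inpp5d, a lipid phosphatase, was on in 11 and 29 wells, the kinase Lyn in 12 and 15, Vav1 in 6 and 15 and Blnk in 6 and 10.

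The rest of the complement system was looked at in the same wells. These were chosen in part by the C1q genes, so no comparison with C1q is drawn. Of 23 complement genes outside the 9, at least 2 were on in 11 of 28 and 18 of 44 microglial-gene wells. In the other wells the counts were 17 of 324 and 22 of 332. Itgam and Itgb2, the chains of complement receptor CR3, were on in 9 and 14 and in 6 and 11 microglial-gene wells. The C3a receptor C3ar1 was on in 9 and 7. The proteases that act with C1q were not seen there: C1ra, C1rb and C1s1, named after their values were seen, were on in 0 of 28 and 0 of 44, and C3 in 1 and 2. Ligands of CSF1R, CX3CR1 and TREM2, listed with Tgfb1, were looked for in the same wells, and at least 1 of the 6 genes was on in 10 and 20. Csf1 was on in 0 and 1, Il34 and Cx3cl1 in 0 and 0 and Clu in 1 and 3, and Tgfb1, which binds none of these receptors, in 0 and 2. Apoe, a lipid carrier bound by TREM2, was on in 9 and 19 microglial-gene wells and in 188 of 324 and 228 of 332 other wells.

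Of 17 genes that mark disease-associated microglia, at least 2 were on in 85.7% of WT and 79.5% of Fasn-R1812W microglial-gene wells. In the other wells the shares were 59.6% and 76.2%, so that in Fasn-R1812W the list was on about as often elsewhere. The lysosomal Ctsd was on in 24 of 28 and 33 of 44 microglial-gene wells (50 of 324 and 80 of 332 other wells), Ctsb in 16 and 28 (82 and 113) and the surface protein Cd9 in 13 and 12 (126 and 172). Cst7, Itgax and Spp1, named after their values were seen, were on in 0 WT wells and in 0, 1 and 1 Fasn-R1812W wells. Genes of dividing cells were seldom on in both kinds of wells. Of 15 G2/M genes, 2 or more were on in 0 of 28 and 1 of 44 microglial-gene wells. In the other wells the counts were 20 of 324 (6.17%) and 27 of 332 (8.13%). For 12 G1/S genes the counts were 0 and 0 against 12 and 20. At least 1 gene was on in 2 and 5 microglial-gene wells for G2/M and in 2 and 3 for G1/S. With so few wells, no difference is read from these counts.

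Markers of other cell types were looked for in the same wells. Of 8 border macrophage genes, 2 or more were on in 2 of 28 WT and 9 of 44 Fasn-R1812W microglial-gene wells, with Stab1 on in 13 and 22, Mrc1 in 3 and 7, Ms4a7 in 1 and 9 and F13a1 in 1 and 3. The summed level of the list ran from 0 to 18143 CPM in WT and from 0 to 35293 CPM in Fasn-R1812W, with medians of 252 and 231. Leaving those wells out, 26 of 352 (7.39%) and 35 of 376 (9.31%) remained. Of 13 monocyte and neutrophil genes 2 or more were on in 1 and 5 microglial-gene wells, and 3 or more in 1 and 2. Over all microglial-gene wells Csf3r was on in 10 and 21 and Ccr2 in 1 and 6. The summed level of this list ran from 0 to 19274 CPM in WT and from 0 to 8340 CPM in Fasn-R1812W, with medians of 0 and 354. In the other wells 2 or more of these 13 genes were on in 16 of 324 and 22 of 332. Lymphocyte genes reached 2 in 0 and 1 microglial-gene wells and in 2 and 17 other wells. What part border macrophages or monocytes had in the shares of the 9 genes was not tested beyond these counts.

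Oligodendrocyte precursor genes, the commonest of the EdU+ gate, differed between the libraries. At least 2 of 9 were on in 0 of 28 WT and 9 of 44 Fasn-R1812W microglial-gene wells. Ptprz1 was on in 0 and 26, Pdgfra in 0 and 5, Vcan in 0 and 5 and Lhfpl3 in 0 and 3. The list's summed level was at most 46.0 CPM in any WT microglial-gene well and ran from 24.1 to 10172 CPM in Fasn-R1812W, with a median of 143. In the other wells the median was 14043 and 15202 CPM. The same library carried more low counts of every member. Wells with 1 to 9 reads of a member numbered 81 (Trem2) to 221 (Csf1r) of 376 in EdU+ Fasn-R1812W and 1 (Trem2) to 10 (Csf1r) of 352 in EdU+ WT. These low counts held at most 1.17% of the reads of any member.

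In EdU+ Fasn-R1812W low counts were commoner in wells that shared an index with the well richest in that gene. There C1qc had 1 to 9 reads in 31 of 35 wells that shared 1 index with the richest well (88.6%) and in 139 of 315 that shared none (44.1%), among all wells of the library where it was not on. For Csf1r the shares were 91.9% and 63.5%, and for Trem2 45.9% and 20.2%. The order was the same for all 9 genes in this library. In EdU+ WT low counts were few. The shares of C1qc were 8.57% and 0.932%, and the order was the other way for P2ry12 (0 of 37 and 4 of 333 wells) and Trem2 (0 of 36 and 1 of 332). What part reads from other wells had in these low counts was not tested.

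Tyrobp was the member most often on outside the microglial-gene wells, in 11 other EdU+ WT wells and 23 other EdU+ Fasn-R1812W wells. The leukocyte gene Ptprc was on in 7 and 19 of them. At least 2 monocyte and neutrophil genes were on in 6 and 11, and at least 2 lymphocyte genes in 0 and 8, and 3 Fasn-R1812W wells counted in both. The 8 Fasn-R1812W wells with lymphocyte genes held 44.1% of the Tyrobp reads of the library. Over the whole EdU+ gate, 14 of 15 lymphocyte genes reached 5 CPM and all 14 were higher in Fasn-R1812W, with a median log2 difference of 5.09. Every well with 2 or more lymphocyte genes on was then left out, 2 in WT and 18 in Fasn-R1812W. In the rest Tyrobp stood at 182 and 318 CPM, a log2 difference of 0.81. There 0 of the 9 members were at least 2-fold higher. No share over all genes is given for that setting, so nothing is read from that count. In microglial-gene wells alone Tyrobp stood at 930 and 1804 CPM, 1.94-fold higher in Fasn-R1812W.

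Within the microglial-gene wells the other members had lower ratios of Fasn-R1812W over WT than Tyrobp. The log2 difference of Tyrobp there, 0.96, was itself below the median of 1.07 over all genes tested. C1qa was at 1270 and 1273 CPM in WT and Fasn-R1812W and Cx3cr1 at 2593 and 2565. C1qc was at 5338 and 2502 CPM and Tmem119 at 2867 and 974, both at least 2-fold lower in Fasn-R1812W. None of the 9 was at least 2-fold higher there, where 50.6% of 9780 genes were, and 2 of 9 were at least 2-fold lower, where 27.1% were. The median log2 difference in these wells was -0.56 for the 9 genes and 1.07 for all genes tested. The wells of each library were chosen by reads of the 9 genes, while the other genes had no part in the choice. How the 9 compare with all genes is therefore partly set by that choice, and nothing is read from it. The Fasn-R1812W wells held more reads and more genes, with medians of 227112 reads and 2697.5 genes against 111148 and 738.5 in WT, and what part that had was not tested.

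The genotype difference in the EdU+ gate depended on the nucleus filter. With at least 1000 genes and 50000 reads, 167 WT and 348 Fasn-R1812W wells were kept, of which 4 (2.40%, 0.656 to 6.02) and 42 (12.1%) were microglial-gene wells. This filter removed 24 of the 28 WT microglial-gene wells, 21 of them for the number of genes alone, but 161 of the 324 other WT wells and 2 of the 44 in Fasn-R1812W. WT microglial-gene wells had a median of 738.5 genes, below the 1064 of the other WT wells, although their reads were the more numerous, 111148 against 89219.

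Under that filter most members were higher in Fasn-R1812W. Cx3cr1 was at 25.3 CPM in WT and 340 in Fasn-R1812W, Csf1r at 194 and 561, C1qc at 104 and 350, P2ry12 at 53.4 and 183 and Trem2 at 33.9 and 116. With Tyrobp, at 156 and 519, 6 of the 9 were at least 2-fold higher, where 21.5% of 14281 genes were, and 8 of 9 were higher by any amount, where 51.1% were. The median log2 difference of the 9 was 1.73, beside 0.03 over all genes. C1qa was 0.52 and C1qb 0.79 higher on the log2 scale, and Tmem119 fell by 0.40 on that scale. All 9 were on in a larger share of Fasn-R1812W wells, as were 69.2% of 12652 genes. They were on in at least 2 times the share (20.2% of those genes were), where the filter of 300 genes and 20000 reads gave P2ry12 alone (28.4% of 12946 genes were). The on shares in WT then rested on 3 wells for each of C1qa, C1qc, Cx3cr1, P2ry12, Tmem119 and Trem2.

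Filters that did not count genes with few reads gave the lower difference again. With 50000 reads and no minimum of genes, 26 of 324 WT wells (8.02%) and 42 of 348 Fasn-R1812W wells (12.1%) were microglial-gene wells. With 300 genes counted at 10 or more reads and 20000 reads, the counts were 26 of 336 (7.74%) and 43 of 375 (11.5%). In both, Tyrobp was the single member at least 2-fold higher. No share over all genes is given for these 2 filters, so nothing is read from that count. These 2 filters were chosen after the data were seen. Thinning every kept well to 20000 reads and calling a gene on at 3 reads gave 28 of 352 (7.95%) and 42 of 376 (11.2%). The same thinning with a gene on at 1 read gave 28 of 352 and 77 of 376 (20.5%), a difference of 12.5 percentage points.

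**Figure D4:**
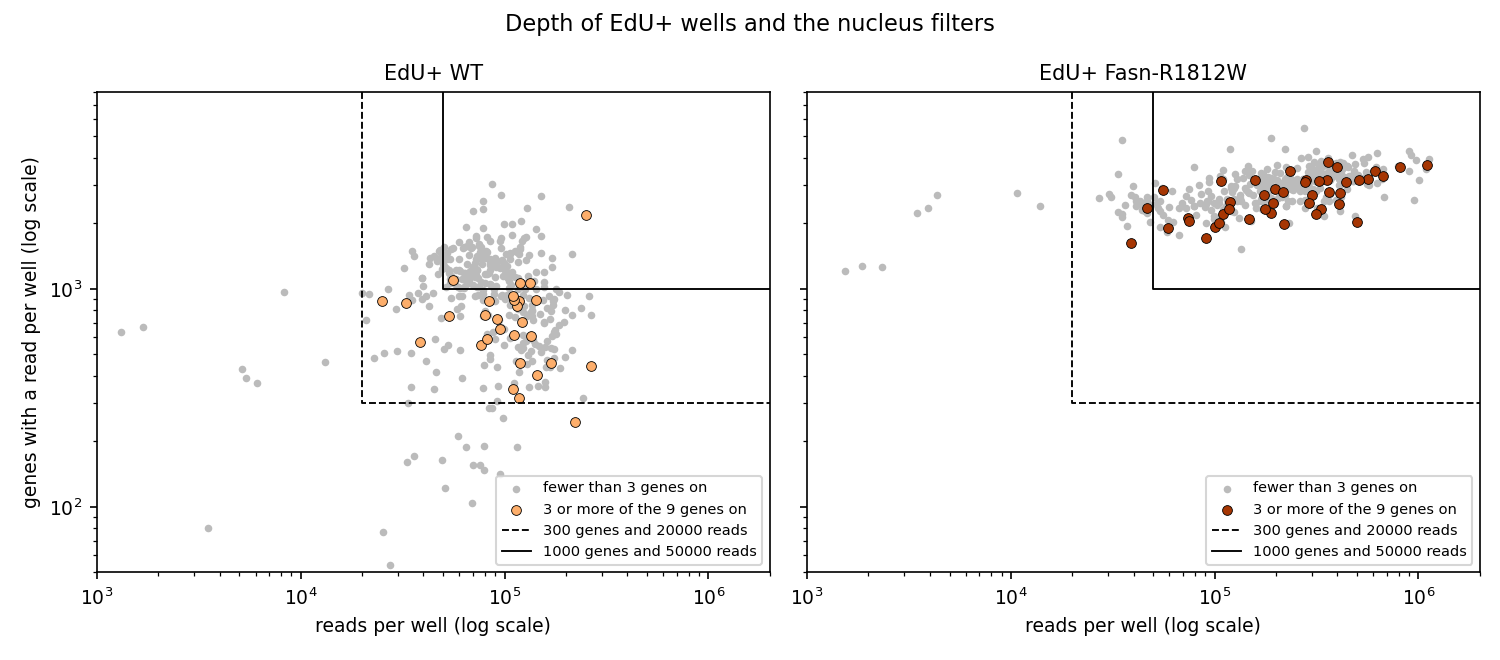
Reads (x axis) and genes with a read (y axis) of each EdU+ well, both on log scales, with the limits of the 2 nucleus filters; coloured points are wells with 3 or more of the 9 genes on, and wells under 1000 reads or 50 genes are not drawn. Most coloured WT wells lie between the 2 limits, at 300 to 1000 genes, 1 lies below 300 genes, and all 44 in Fasn-R1812W lie above 1000 genes.

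In the NeuN+ gate the members other than Csf1r stood at 15.0 CPM or less. Each of these had at least 50.3% of its NeuN+ Fasn-R1812W reads in 1 well, which for Trem2 was another well than for the rest. C1qc and Tmem119 had 0 reads in NeuN+ WT and 194 and 341 in NeuN+ Fasn-R1812W. With 3 reads set for the count of 0, their levels in EdU+ WT were 11310-fold and 6009-fold higher. These ratios are no lower bounds, since reads come by the well: 1 NeuN+ Fasn-R1812W well alone had 181 reads of C1qc. C1qa had 1 read in NeuN+ WT, so that its ratio of EdU+ over NeuN+ there, 7989, has a counting interval of 1433 to 315644. Trem2 was at 0.594 and 0.514 CPM in NeuN+ WT and Fasn-R1812W, Tyrobp at 3.31 and 2.5, P2ry12 at 8.67 and 7.57 and Cx3cr1 at 1.34 and 11.1. A single NeuN+ Fasn-R1812W well of 492477 reads had 8 members on and held 82.2% of the C1qb, 93.3% of the C1qc, 83.3% of the Cx3cr1, 79.4% of the Tyrobp, 74.2% of the Tmem119, 55.2% of the P2ry12 and 50.3% of the C1qa reads of its library. It held 2.18% of the Csf1r reads and 0 of Trem2. That well also had 136 reads of Rbfox3, which encodes NeuN, 982 of Snap25 and 939 of Syt1. Of the 5 members that reached 5 CPM in either NeuN+ library, C1qa, C1qb and Cx3cr1 were at least 2-fold higher in Fasn-R1812W (5.8% of 13395 genes were). These 3 reached 5 CPM in Fasn-R1812W only, so the filter partly sets that count and nothing is read from it.

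Csf1r was the exception in the NeuN+ gate. The gene is on the plus strand of chromosome 18 (61100598 to 61132149), and its exons share 873 bases with those of Hmgxb3 on the other strand. It was on in 23 wells (6.57%, 4.21 to 9.70) in WT and 32 wells (9.09%, 6.30 to 12.6) in Fasn-R1812W, at 22.1 and 33.1 CPM. In 20 and 25 of these wells no other member was on, and all of them had at least 2 neuronal genes on. Hmgxb3, whose exons overlap those of Csf1r and which was looked at after these values were seen, was on in 23 of the 23 WT wells (100%, 85.2 to 100) and 26 of the 32 Fasn-R1812W wells (81.3%, 63.6 to 92.8). In all kept NeuN+ wells it was on in 10% and 13.1%. In EdU+ wells with Csf1r on it was on in 6 of 34 and 6 of 46. Without a stated strand setting, reads of the overlapping exons cannot be told apart, and the NeuN+ values of Csf1r are uncertain for that reason. P2ry12 and Med12l share 9 exon bases. Med12l was on in 4 of 8 and 4 of 11 NeuN+ wells with P2ry12 on and in 39.1% and 34.4% of all.

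**Figure D5:**
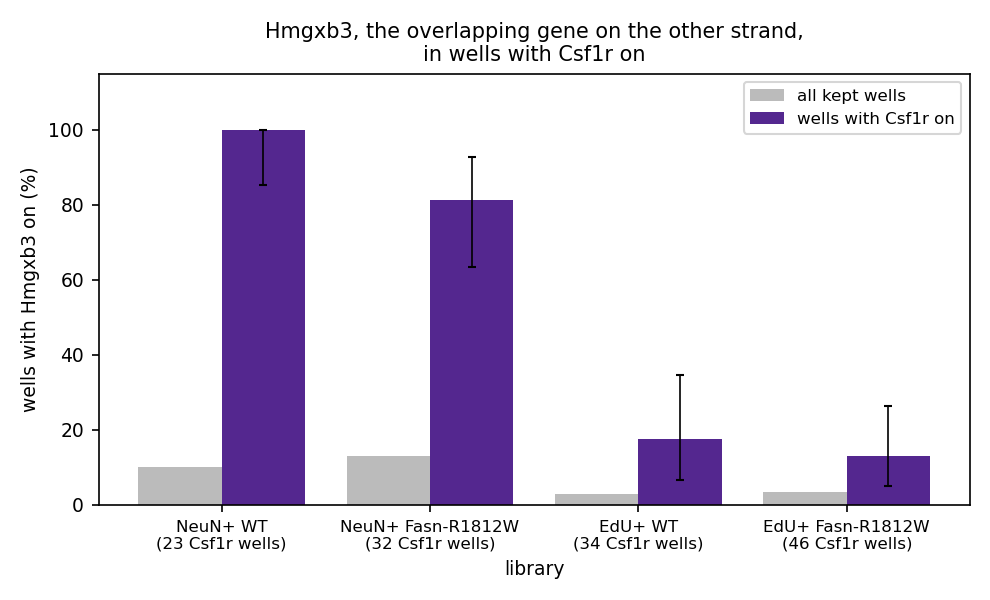
Percent of wells with Hmgxb3 on (y axis) among all kept wells (grey) and among wells with Csf1r on (purple) in the 4 libraries (x axis); lines on the purple bars are exact 95% intervals for counting error. Of NeuN+ wells with Csf1r on, 100% in WT and 81.3% in Fasn-R1812W had Hmgxb3 on, against 17.6% and 13% of EdU+ wells with Csf1r on.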

How the data were processed

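The authors deposited raw read counts, as whole numbers, for 25567 genes and 384 wells in each of 4 libraries. The labels state 382 nuclei per library and do not say which wells were empty. Per the submitters' processing notes, the tools were Trimmomatic 0.36 and STAR 2.5.3a and the build GRCm38.p5. Which program counted the reads, over which annotation and whether by strand is not given in the sources used here. Symbols were matched to 25395 identifiers, and positions and exon lengths came from GENCODE M21 of GRCm38.

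Wells were kept at 300 genes and 20000 reads, or at 1000 genes and 50000 reads. Counts were summed over kept wells and divided by nuclear-encoded reads (CPM), and log2 ratios used a prior of 1 CPM. Genes of at least 5 CPM in either library entered background counts of ratios, and genes on in at least 5 wells those of shares. Intervals are exact Poisson or Clopper-Pearson at 95%. A count of 0 was set at 3 reads or wells. With 1 library per group no test was made, and an additive fit of gate and genotype was not run. Doublets were not called, and an alternative dropped the 5% of wells richest in genes. The tools were pandas 2.3.3, scipy 1.17.1 and numpy 2.4.6 in Python 3.11.15, with edgeR 4.0.16 in R 4.3.3 for scaling factors, and the ratio, share and likeness steps were tested on simulated data. Alternatives were other nucleus filters, thresholds for on, thinning, scalings and priors.

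The 9 members and the marker lists were chosen with earlier results of these data known. Named genes are the 9 members, the 10 genes whose on wells (at least 10) were most like the microglial-gene wells, each member's nearest partner and up to 4 genes of each list on in most of those wells. The ranking omitted predicted genes, Rik names, pseudogenes and genes of the mitochondrial genome. Genes outside that rule (Hmgxb3, Med12l, Spi1, Cst7, Itgax, Spp1, C1ra, C1rb, C1s1, C3, Il34, Cx3cl1 and the neuronal genes of 1 well) were named after their values were seen. Some genes that this rule selects are not reported here. Embryonic nuclei of the series were not analysed here.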

Additional observations from a re-analysis of the deposited data

Results flagged for a closer look

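C1qb had opposite signs in the 2 gates: the log2 difference of Fasn-R1812W over WT was 3.30 in NeuN+ and -0.31 in EdU+. For Csf1r it was 0.56 in NeuN+ and -0.0101 in EdU+. The EdU+ value of Csf1r, near 0, changed sign in 7 of 12 alternatives. Its NeuN+ values are uncertain because of the overlap with Hmgxb3. Each value compares 1 library with 1, and the difference between the gates was not tested. In NeuN+ Fasn-R1812W 1 well held 82.2% of the C1qb reads.

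An EdU+ WT well left out by the nucleus filter, with 246 genes and 220711 reads, had 4 members on: C1qb with 3119 reads, Trem2 with 3241, Cx3cr1 with 1059 and Tmem119 with 424. The WT wells that were kept had at most 793 reads of Trem2.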

How the results depend on the processing

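The share of microglial-gene wells differed by 3.75 percentage points between the EdU+ libraries (Fasn-R1812W minus WT). It was 9.67 with 1000 genes and 50000 reads, 12.5 with a gene called on at 3 reads, 12.5 after thinning to 20000 reads with a gene on at 1 read, and 74.7 with a gene on at 1 read. It reversed to -8.22 with 2000 genes and 100000 reads, which left 5 WT wells. The other 10 alternatives gave a positive difference within its counting interval. The number of members at least 2-fold higher in EdU+ Fasn-R1812W, 1 of 9, became 6 with 1000 genes and 50000 reads, 7 with 2000 genes and 100000 reads, 0 by mean CPM per nucleus and 0 without wells with lymphocyte genes. The number at least 2-fold higher in EdU+ than NeuN+ in WT, 9, became 3 with 2000 genes and 100000 reads. Under that filter the median log2 difference over all genes tested was 2.92 between the EdU+ libraries. For EdU+ over NeuN+ in WT it was -2.89. Nothing about the 9 genes is read from the counts of 7 and 3. The same holds for the counts of 0, for which no share over all genes is given. The median Jaccard index became 0.348 with a gene on at 3 reads. The count of 9 members on in a larger Fasn-R1812W share fell to 6 with 2000 genes and 100000 reads and was 9 elsewhere. No share over all genes is given for the count of 6, and nothing is read from it. The log2 difference of Tyrobp ran from 0.45 to 1.73 over 12 alternatives, while Csf1r, near 0, changed sign in 7. The stricter filters left fewer WT wells, and the causes of these changes were not tested. The alternatives without lymphocyte or border macrophage wells and the 2 filters that set no minimum on genes with few reads were added after the data were seen. No paired analysis was possible because each group had 1 library and the labels carry no replicate numbers; for the same reason no replicate could be left out. The number of wells limits precision: several EdU+ WT shares rest on 14 to 17 wells.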
